A study of Mus musculus with 4 samples.

Results

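The Cyp4 genes encode cytochrome P450 enzymes that add a hydroxyl group at or near the methyl end of fatty acids and eicosanoids. The 10 genes described here are Cyp4a10, Cyp4a14, Cyp4a31, Cyp4a32, Cyp4a12a, Cyp4a12b, Cyp4f13, Cyp4f14, Cyp4f15 and Cyp4v3. Their probes were found by matching the accession of each non-control probe to a member gene, which gave 14 of the 39429 probes on the array and 10 of the 17406 genes or other features tested. Cyp4a10 and Cyp4a31 had 3 probes each and every other member had 1. All 14 probes were well above background on all 4 arrays, so each member passed the filter on dim probes and none passed it through 1 genotype alone.

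Total RNA came from the livers of 2 Cyp3a-/- mice, which lack the cluster of Cyp3a drug-metabolizing P450 genes, and 2 wild type mice, with 1 single-colour Agilent array per liver. The sources used here give no strain, sex, age, feeding state or time of sampling, and not how the cluster was removed. Per the labels, different animals were used in separate experiments, and the labels do not say whether the mice were littermates.

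Cyp3a11, the genotype check, read 0.0079 and 0.0082 in the Cyp3a-/- livers, against 245 and 272 in the wild type livers (processed intensity divided by the array's 75th percentile, the scale of every signal below). Both of its Cyp3a-/- readings were too dim to count as well above background. The share of probes that passed that mark ran from 54.4% to 56.4% over the arrays, with 0 saturated spots, and the 75th percentile itself was 308 to 352 intensity units. The Cyp3a-/- arrays lay on slides 2 and 3 and both wild type arrays on slide 1, so slide and genotype cannot be told apart. All 12 hepatocyte markers examined, such as albumin (Alb), were measured, and their summed signal was 3616 and 4235 in the Cyp3a-/- livers and 4123 and 3669 in the wild type livers. In whole liver, fewer cells of a type and less RNA per cell cannot be told apart.

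In mouse liver, Cyp4a10 and Cyp4a14 are textbook targets of PPARA, the nuclear receptor that fatty acids and fibrate drugs activate and that is active in fasting. PPARA binds DNA with the retinoid X receptor at a direct repeat of a short motif with a single base between the copies. Omega-hydroxylated fatty acids are oxidised further to dicarboxylic acids, which peroxisomes shorten. Cyp4a12a and Cyp4a12b are close copies with male-biased expression that make 20-HETE from arachidonic acid. Cyp4f enzymes act mainly on leukotrienes and long fatty acids, and Cyp4v3 corresponds to human CYP4V2, the gene mutated in Bietti crystalline dystrophy.

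Promoter sequences from RefSeq (GRCm38.p6, from 250 bases before to 50 after the start) were at hand for 5 of the 10 members: Cyp4a32, Cyp4f13, Cyp4f14, Cyp4f15 and Cyp4v3. The search used that direct repeat, AGGTCA, then any single base, then AGGTCA again, on both strands. Shown are Cyp4a32, as the 1 gene with a promoter here among the 4 Cyp4a genes with lower mean levels in Cyp3a-/- liver, and Cyp4v3, as a member with little difference between the genotypes. Capitals mark the window of 13 bases with the fewest mismatches to the repeat.
Cyp4a32: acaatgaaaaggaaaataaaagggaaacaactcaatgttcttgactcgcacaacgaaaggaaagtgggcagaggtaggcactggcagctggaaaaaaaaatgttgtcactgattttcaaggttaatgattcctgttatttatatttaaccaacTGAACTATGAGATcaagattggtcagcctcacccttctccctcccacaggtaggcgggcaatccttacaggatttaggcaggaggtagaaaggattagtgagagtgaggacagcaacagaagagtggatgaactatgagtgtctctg
Cyp4v3: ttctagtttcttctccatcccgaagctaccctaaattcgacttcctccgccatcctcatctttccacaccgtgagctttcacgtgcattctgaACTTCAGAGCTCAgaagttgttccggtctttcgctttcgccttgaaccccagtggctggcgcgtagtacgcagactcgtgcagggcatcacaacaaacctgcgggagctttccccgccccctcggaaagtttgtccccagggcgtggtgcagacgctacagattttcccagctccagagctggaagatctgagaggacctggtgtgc
The Cyp4a32 window is chr4:115600688-115600987 on the plus strand, and the Cyp4v3 window is chr8:45333114-45333413 on the minus strand. The best window had 3 mismatches over the 12 compared positions in each, at bases 154 to 166 of the Cyp4a32 sequence and 94 to 106 of the Cyp4v3 sequence. Of 32851 promoters of this length, 24.6% held a window with at most 3 mismatches. The fewest mismatches were 4 for Cyp4f15 and for each of the 4 listed starts of Cyp4f14, which 79.8% of promoters matched, and 5 for Cyp4f13. A single AGGTCA, on either strand, was in none of these member promoters (0 copies each) and in 16.3% of all promoters. These windows do not cover sites farther from the start.

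Lower Cyp4 signal in Cyp3a-/- liver was seen in 4 neighbouring Cyp4a genes, while the other 6 members differed little. Cyp4a14 averaged 15.5-fold lower, Cyp4a31 3.16-fold, Cyp4a10 3.14-fold and Cyp4a32 2.21-fold lower (n = 2 per genotype). For all 4 genes the 2 livers within each genotype also differed by a wide margin. None of the 10 members passed limma's test over all features (0 higher, 0 lower at an adjusted p under 0.05), where 0.276% of the 17406 features passed, that is 0.178% as higher and 0.0977% as lower in Cyp3a-/- liver. At an unadjusted p under 0.05, 3 of the 10 members stood, Cyp4a14, Cyp4a10 and Cyp4a31, against 10% of all features.

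**Figure D1:**
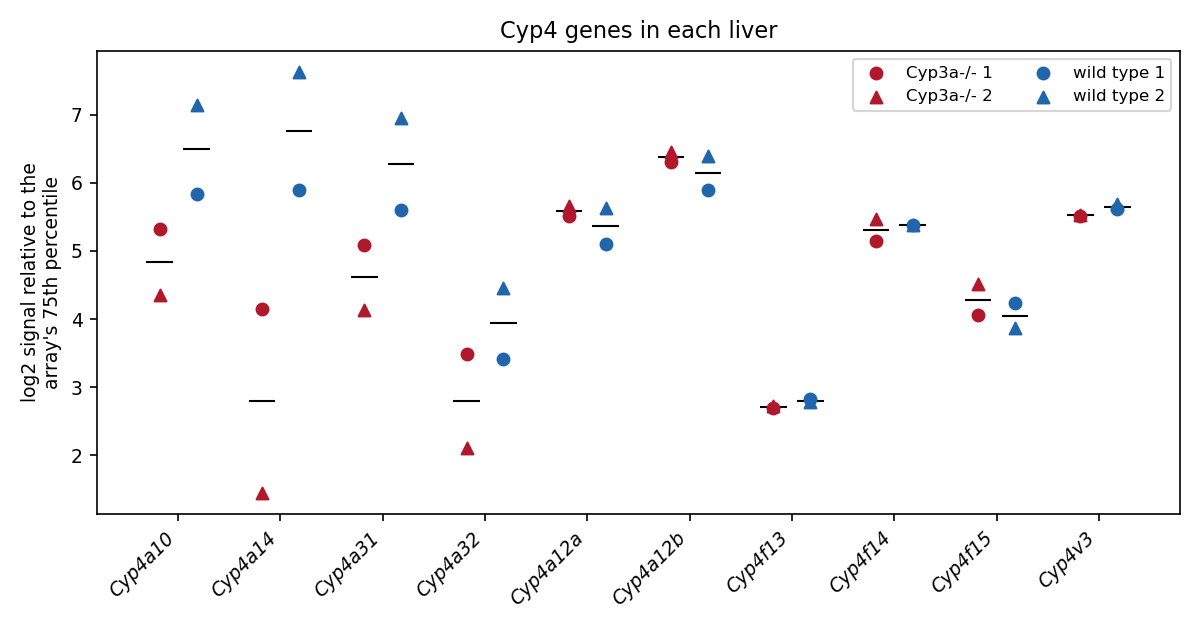
Log2 of the signal in multiples of the 75th percentile (vertical axis) of the 10 Cyp4 genes in each liver, with Cyp3a-/- in red and wild type in blue, 1 symbol per liver and black bars at the means of 2. For Cyp4a10, Cyp4a14, Cyp4a31 and Cyp4a32 the highest point is wild type 2 and the lowest is Cyp3a-/- 2; heights of different genes come from different probes and are not comparable.

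Cyp4a14, a fatty acid hydroxylase with strong PPARA dependence in mouse liver, gave a signal of 17.8 and 2.73 in the Cyp3a-/- livers, against 59.2 and 198 in the wild type livers. Both Cyp3a-/- livers were below both wild type livers. The spread within a genotype was large as well, since Cyp3a-/- 2 stood at 0.153 times Cyp3a-/- 1 and wild type 2 at 3.34 times wild type 1. The log2 fold change was -3.96 ± 0.98 (SE), with a 95% interval from -6.41 to -1.51 (limma adjusted p = 0.303). It held rank 12 from the lowest of 17406 log2 fold changes, yet rank 464 by p. The gap between its wild type livers was wider than that of 99.7% of features, and the gap between its Cyp3a-/- livers than that of 99.9%.

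Cyp4a10, the archetypal clofibrate-inducible hydroxylase, gave 40.0 and 20.5 in the Cyp3a-/- livers, against 57.4 and 141 in the wild type livers. The genotypes did not overlap, and the step between Cyp3a-/- 1 and wild type 1 was smaller than the step between the wild type livers. Its log2 fold change was -1.65 ± 0.51 (SE; 95% interval -2.93 to -0.37, limma adjusted p = 0.391). Its other probes gave a like order of livers. Probe A_55_P2011111 differed by -1.56 (log2), without overlap between the genotypes. Probe A_55_P2092030 differed by -1.32, but there Cyp3a-/- 1 had a log2 signal of 3.57 and wild type 1 one of 3.51, so the genotypes overlapped.

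Cyp4a31 is a close relative of Cyp4a10 beside it on chromosome 4. Its brightest probe gave 34.1 and 17.6 in the Cyp3a-/- livers, against 48.5 and 124 in the wild type livers. The genotypes did not overlap on this probe, with a log2 fold change of -1.66 ± 0.53 (SE; limma adjusted p = 0.396). On its other probes Cyp3a-/- 1 lay above wild type 1. Probe A_55_P2024033 read 0.96 and -0.93 in the Cyp3a-/- livers and 0.68 and 2.20 in the wild type livers (log2 signal), a mean difference of -1.42. Probe A_55_P1952399 read 3.43 and 2.63 in the Cyp3a-/- livers and 3.11 and 4.40 in the wild type livers (log2 signal), a mean difference of -0.73. The probes of Cyp4a31 thus differed in size and in whether the genotypes overlapped, though not in direction.

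Cyp4a32, the next gene along, gave 11.2 and 4.31 in the Cyp3a-/- livers, against 10.7 and 22.0 in the wild type livers. The genotypes overlapped, because Cyp3a-/- 1 lay just above wild type 1. Its log2 fold change was -1.15 ± 0.55 (SE), with a 95% interval from -2.51 to 0.22 that includes 0 (limma adjusted p = 0.572). Cyp4a10, Cyp4a31 and Cyp4a32 are near copies whose transcripts can bind each other's probes, so none of these values can be assigned to 1 gene with certainty.

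Across the 8 probes of these 4 genes, wild type 2 was the highest liver on 8 and Cyp3a-/- 2 the lowest on 8. Over all features, wild type 2 was the highest liver for 24.1%. Cyp3a-/- 1 lay below wild type 1 on 4 of the 8 probes and above it on the other 4. Wild type 2 exceeded wild type 1 by 2.06-fold to 3.34-fold, and Cyp3a-/- 1 exceeded Cyp3a-/- 2 by 1.74-fold to 6.52-fold. The genotypes did not overlap on 4 of the 8 probes, with Cyp3a-/- lower on each. Of all features, 20.2% had no overlap with Cyp3a-/- lower, and 42.8% had none in either direction. All 8 mean differences were below 0, between -3.96 and -0.73 (log2). With wild type 2 left out they lay between -3.09 and -0.08.

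**Figure D2:**
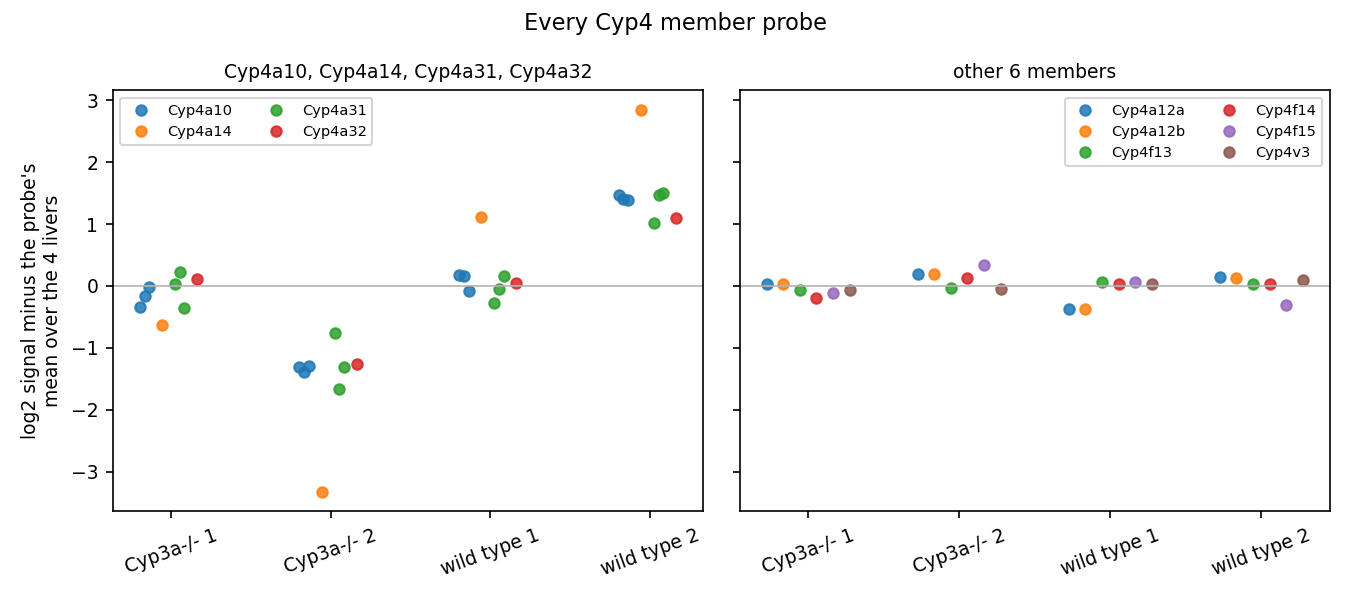
Each of the 14 member probes as log2 signal minus its own mean over the 4 livers (vertical axis), by liver (horizontal axis), with 1 point per probe and colours by gene. On the left, the 8 probes of Cyp4a10, Cyp4a14, Cyp4a31 and Cyp4a32 are lowest in Cyp3a-/- 2 and highest in wild type 2; on the right, the other 6 members stay near 0.

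Leaving out a liver changed the sizes. Without wild type 2 the log2 fold change was -3.09 for Cyp4a14, -1.003 for Cyp4a10, -0.99 for Cyp4a31 and -0.63 for Cyp4a32. Without Cyp3a-/- 1 it was -5.31 for Cyp4a14, which then passed the threshold (limma adjusted p = 0.0335). The single remaining Cyp3a-/- liver was assumed there to vary like the wild type livers. Without Cyp3a-/- 2 it was -2.61 for Cyp4a14, and without wild type 1 it was -4.83, and no member passed in these settings. Adjusted p for Cyp4a14 ran from 7.85e-32 to 0.909 over the 14 alternatives, and the lowest came from median scaling, where the fit gave all genes 1 common spread.

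Cyp4a12a and Cyp4a12b, the male-biased copies, did not share this pattern of livers. Cyp4a12a gave 45.7 and 50.7 in the Cyp3a-/- livers, against 34.3 and 49.4 in the wild type livers. Cyp4a12b gave 79.0 and 87.9 in the Cyp3a-/- livers, against 59.7 and 84.3 in the wild type livers. For both, wild type 1 was the lowest liver and the genotypes overlapped. Their log2 fold changes were 0.22 ± 0.24 and 0.23 ± 0.23 (SE), with 95% intervals from -0.37 to 0.82 and from -0.35 to 0.81 (limma adjusted p = 0.774 and 0.761). The direction was not stable: without wild type 1 the log2 fold changes were -0.039 and -0.016. The Cyp4a12a and Cyp4a12b values followed each other so closely that the probes may not separate the copies.

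Other sex-biased genes were measured in the same livers. Of 15 tested male-biased genes 1 rose and 0 fell, where 0.178% of all features rose and 0.0977% fell. The 1 that rose was the monooxygenase-like gene Moxd1 (limma adjusted p = 0.0168, at least 49.8-fold). Moxd1 was above background on 0 of 2 wild type arrays, so it passed the filter through the Cyp3a-/- livers alone. The median log2 fold change of the 15 was 0.11, against 0.01 over all features. Susd4 stood at 1.51, the glucuronosyltransferase gene Ugt2b1 at 1.16 and the repressor gene Bcl6 at 0.69 (log2 fold change). The major urinary protein gene Mup20 gave 597 and 588 in the Cyp3a-/- livers, against 614 and 519 in the wild type livers. Xist, the RNA of the inactive X chromosome, passed background on 0 of 4 arrays. Of the Y-linked genes, Ddx3y and Eif2s3y passed on all 4, Uty on 3 and Kdm5d on 0. Of the 3 tested genes of the sex chromosomes 0 passed, and 1 had an unadjusted p under 0.05, against 10% of all features. Eif2s3y stood at 0.37 and Ddx3y at 0.01 (log2 fold change). The dim Uty probe stood at 1.23, with 1 of 2 wild type readings not above background. Of the 6 tested female-biased genes 1 rose, Cyp2b9, with 1.14 and 0.574 in the Cyp3a-/- livers, against 0.0544 and 0.0471 in the wild type livers, 1 of them not above background (limma adjusted p = 0.0234), and 7 of the 15 on the array passed background on 0 arrays. The steroid hydroxylase gene Cyp2a4 stood at 0.68 (log2 fold change), and Abcd2 and Acot3, also listed as female-biased, are given with the peroxisomal genes.

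The Cyp4f members also differed little between the genotypes. Cyp4f13 gave 6.47 and 6.63 in the Cyp3a-/- livers, against 7.08 and 6.88 in the wild type livers. The genotypes did not overlap, but the difference was small at -0.09 ± 0.17 (log2, SE; 95% interval -0.52 to 0.34, limma adjusted p = 0.88). Cyp4f14, which hydroxylates leukotriene B4 in mouse, gave 35.6 and 44.4 in the Cyp3a-/- livers, against 41.5 and 41.5 in the wild type livers. The wild type livers thus fell between the Cyp3a-/- livers, and the log2 fold change was -0.06 ± 0.20 (SE; 95% interval -0.55 to 0.43, limma adjusted p = 0.931). Cyp4f15 gave 16.7 and 22.8 in the Cyp3a-/- livers, against 18.8 and 14.5 in the wild type livers. The genotypes overlapped at a log2 fold change of 0.24 ± 0.25 (SE; 95% interval -0.38 to 0.85, limma adjusted p = 0.769), and the intervals of these genes leave room for differences of up to the stated bounds.

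Cyp4v3, a hydroxylase of fatty acids, gave 45.8 and 46.3 in the Cyp3a-/- livers, against 49.1 and 51.3 in the wild type livers. Both Cyp3a-/- livers were lower, by a small step: the log2 fold change was -0.13 ± 0.17 (SE; 95% interval -0.55 to 0.30, limma adjusted p = 0.831). In all, 5 of the 10 members had both Cyp3a-/- livers below both wild type livers, namely Cyp4a10, Cyp4a14, Cyp4a31, Cyp4f13 and Cyp4v3, against 20.2% of all features. No member had both above (0 of 10), against 22.5% of all features, so 5 of 10 had no overlap in either direction, against 42.8%. The median log2 fold change of the 10 members was -0.11, beside 0.01 over all features.

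**Figure D3:**
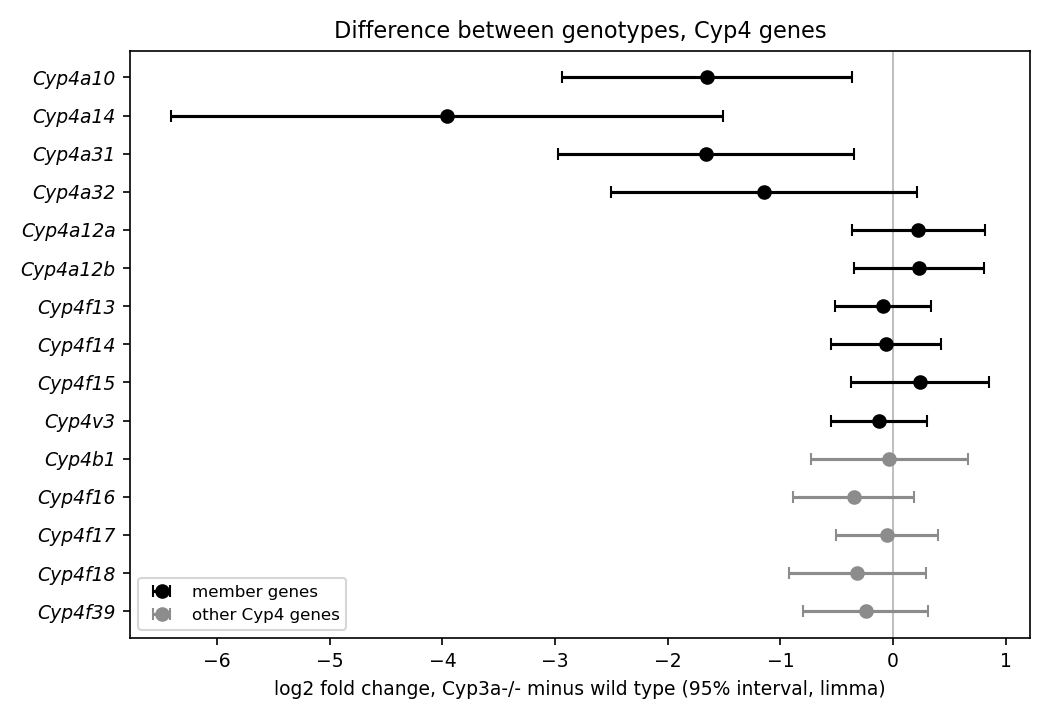
Log2 fold change, Cyp3a-/- minus wild type (horizontal axis), with 95% intervals from limma, for the 10 members in black and the 5 other Cyp4 genes tested in grey. The intervals of Cyp4a10, Cyp4a14 and Cyp4a31 exclude 0 before adjustment, and none of the 15 passed after adjustment over all features.

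The remaining Cyp4 genes on the array gave no call either. Of 10 such genes 5 were tested, with 0 past the threshold (0 also at an unadjusted p under 0.05) and a median log2 fold change of -0.24. Cyp4b1, which ends the Cyp4a row on chromosome 4, stood at -0.03 ± 0.28 (log2 fold change, SE). Cyp4f16 stood at -0.35, Cyp4f18 at -0.32, Cyp4f17 at -0.05 and Cyp4f39 at -0.24, the last with 1 of 2 Cyp3a-/- readings not above background. Cyp4a29, Cyp4a30b and Cyp4f40 were well above background on too few arrays to be tested, and Cyp4f37 and Cyp4x1 on none.

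By the order of genes in GRCm38.p6, which served for neighbourhood only, 6 members lie in 1 row on chromosome 4. The order of those measured is Cyp4a12a, Cyp4a12b, Cyp4a14, Cyp4a10, Cyp4a31, Cyp4a32 and then Cyp4b1. The 4 genes with lower means were adjacent in this order, with the Cyp4a12 pair on one side at 0.22 and 0.23 and Cyp4b1 on the other at -0.03 (log2 fold change). Because transcripts of Cyp4a10, Cyp4a31 and Cyp4a32 can bind each other's probes, this run may hold fewer separate signals than genes. Among the 10 other measured genes within 15 annotated genes on either side of the members, log2 fold changes ran from -0.32 to 0.30 (lowest adjusted p 0.65). The Cyp4f members lie in a row on chromosome 17, where the 11 other measured neighbours ran from -0.46 to 0.15. The 10 measured neighbours of Cyp4v3 on chromosome 8 ran from -0.63 to 0.55. The Cyp3a genes lie on another chromosome.

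**Figure D4:**
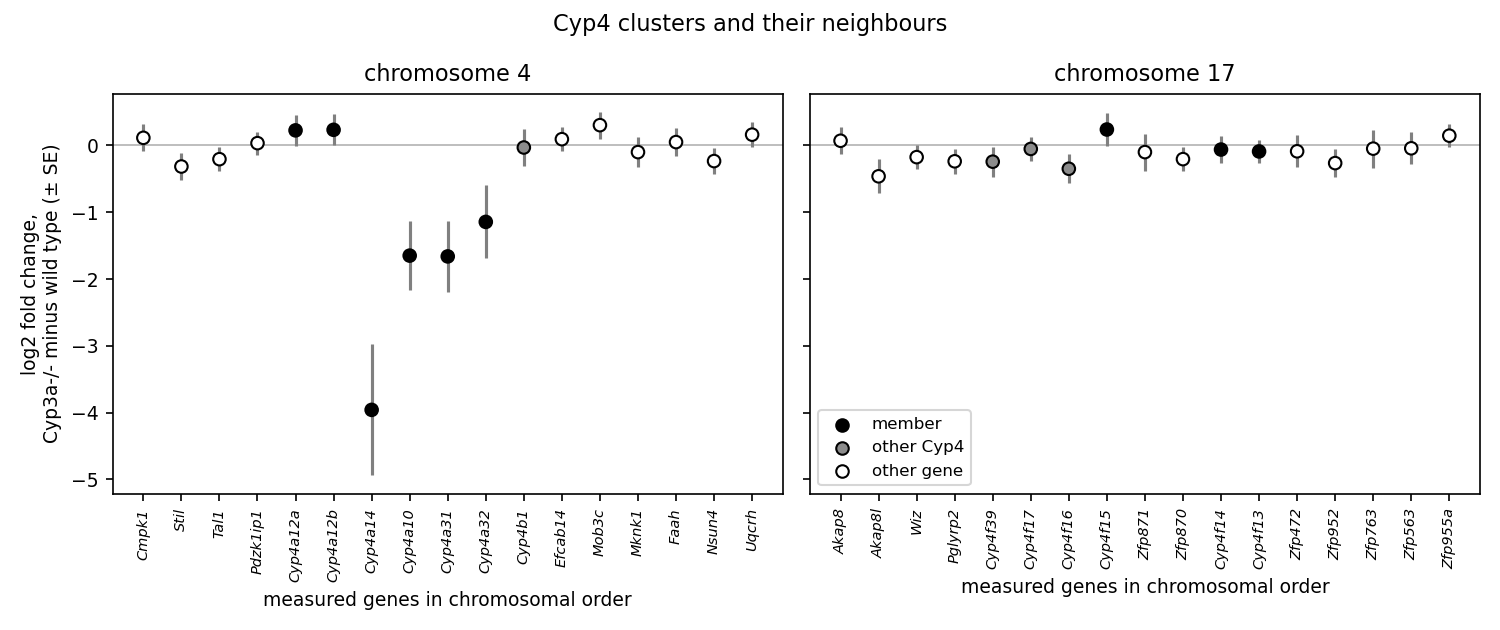
Log2 fold change, Cyp3a-/- minus wild type, with SE bars (vertical axis) for the measured genes in chromosomal order (horizontal axis) around the Cyp4a row on chromosome 4 and the Cyp4f row on chromosome 17. Members are black, other Cyp4 genes grey and other genes white. On chromosome 4, Cyp4a14, Cyp4a10, Cyp4a31 and Cyp4a32 stand below their neighbours, though Cyp4a10, Cyp4a31 and Cyp4a32 may share signal through each other's probes. Chromosome 17 shows no such step.

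Genes with a similar pattern over the 4 livers were ranked by the root mean square difference of centred log2 signals. Nearest to Cyp4a10 was Cyp4a31 (0.022), followed by Sapcd2 (0.111) and the mitochondrial carrier gene Slc25a30 (0.162). Nearest to Cyp4a12a was Cyp4a12b (0.0112), then Samt1c (0.0274) and the oxidant-response factor gene Nfe2l2 (0.0285). Nothing came as close to Cyp4a14: its nearest was the folate enzyme gene Mthfd1l (0.85), then the recombination gene Rad51b (1.03), the cell cycle factor gene E2f8 (1.11), the growth hormone feedback gene Socs2 (1.11), Olfr681 (1.14) and 4933402C06Rik (1.16). Socs2 gave 0.709 and 0.264 in the Cyp3a-/- livers, against 1.24 and 2.43 in the wild type livers. Mthfd1l, 4933402C06Rik and Sapcd2 were not above background in the 2 Cyp3a-/- livers, nor were Rad51b and Olfr681 in 1 of them and Samt1c in 1 wild type liver, so their likeness is uncertain. With 4 arrays such likeness is a description.

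The PPARA pathway was read from lists of the receptor and its partners, peroxisomal oxidation, mitochondrial oxidation and ketone bodies, and other targets. These lists held 69 genes in all, not only targets, of which 68 were tested. None passed the threshold (0 higher, 0 lower), and 10 of the 68 had an unadjusted p under 0.05, against 10% of all features. Of the 68 genes, 57 had a log2 fold change below 0, where 48.6% of all features did. Their median was -0.22. Wild type 2 was the highest liver for 52 of the 68, against 24.1% of all features, and without wild type 2 the median was -0.05, with 41 of 68 below 0.

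Ppara itself had a log2 signal of 3.91 and 4.14 in the Cyp3a-/- livers, against 4.59 and 4.64 in the wild type livers. The genotypes did not overlap, and here the wild type livers were close to each other (log2 fold change -0.59 ± 0.18, SE, limma adjusted p = 0.389). Among the 11 genes of the receptor and its partners, 7 were below 0 at a median of -0.01. The corepressor gene Ncor1 stood at -0.43, the mediator subunit gene Med1 at 0.53 and the partner receptor gene Rxrb at -0.09 (log2 fold change).

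Of 19 peroxisomal oxidation genes 17 were below 0, at a median of -0.20. Ehhadh, the peroxisomal bifunctional enzyme that shortens dicarboxylic acids, gave 20.5 and 15.3 in the Cyp3a-/- livers, against 17.8 and 46.2 in the wild type livers, so the genotypes overlapped. Pex11a, which drives peroxisome division, gave 19.6 and 20.2 in the Cyp3a-/- livers, against 25.1 and 39.1 in the wild type livers, without overlap. The thioesterase gene Acot3 gave 0.316 and 0.244 in the Cyp3a-/- livers, against 0.1925 and 1.196 in the wild type livers. Its log2 fold change of -0.79 thus rested on wild type 2, and the genotypes overlapped. The transporter gene Abcd2, a dim transcript with 1 of 2 wild type readings not above background, stood at 1.48 (log2 fold change). Of 20 genes of mitochondrial oxidation and ketone bodies 17 were below 0, at a median of -0.22. Ucp2 stood at -0.80, Acot2 at -0.72, Acot1 at -0.64 and Cpt1b at -0.53 (log2 fold change). The genotypes overlapped for Acot1 and Acot2, with Cyp3a-/- 1 above wild type 1, and did not overlap for Ucp2 and Cpt1b.

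Of 18 other PPARA targets 16 were below 0, at a median of -0.39. Fgf21, a fasting hormone, was too dim to pass background in both Cyp3a-/- livers, so it passed the filter through the wild type livers alone. It gave 0.0669 and 0.649 in the wild type livers, which lay 9.71-fold apart. On their mean it was at least 5.81-fold lower in Cyp3a-/- liver (limma adjusted p = 0.253). G0s2, an inhibitor of fat breakdown, gave 2.88 and 1.57 in the Cyp3a-/- livers, against 4.95 and 14.6 in the wild type livers, the same order of livers as Cyp4a10. Vnn1, a pantetheinase, gave 1.44 and 0.936 in the Cyp3a-/- livers, against 2.76 and 4.86 in the wild type livers. Cd36, a fatty acid uptake protein, gave 0.355 and 0.271 in the Cyp3a-/- livers, against 0.770 and 0.879 in the wild type livers, and here the step between genotypes was wider than either gap within one (log2 fold change -1.41 ± 0.21, SE, limma adjusted p = 0.137).

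**Figure D5:**
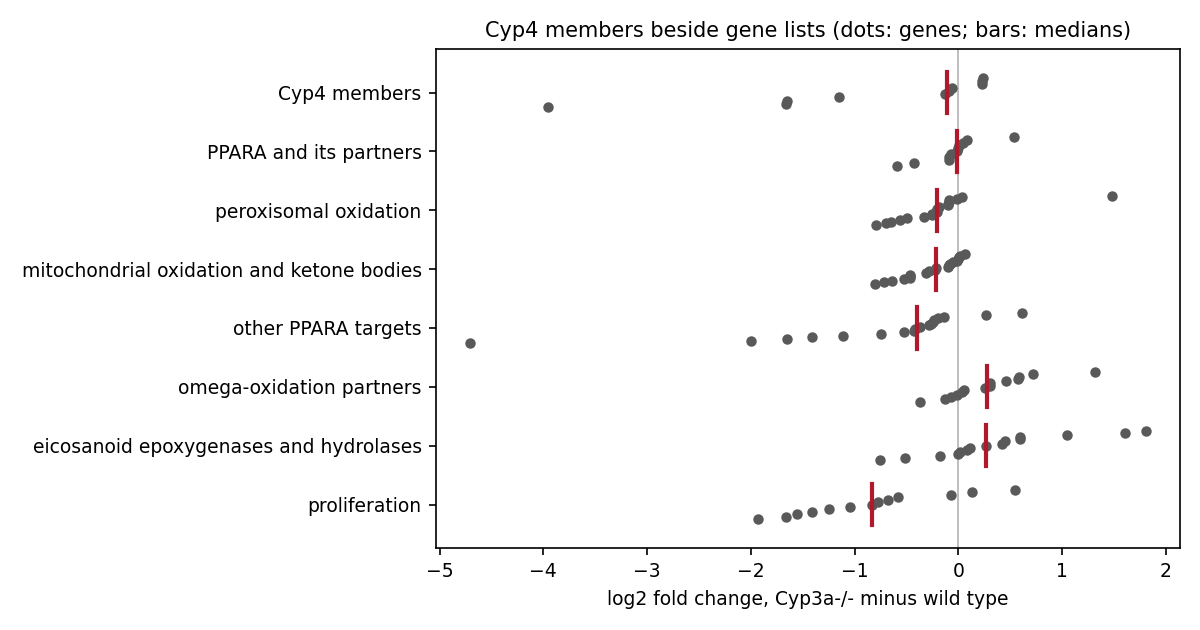
Log2 fold change, Cyp3a-/- minus wild type (horizontal axis), of each tested gene in the Cyp4 set and in 7 gene lists, with red bars at the medians. The PPARA and oxidation lists lie mostly below 0, as does the proliferation list, which has the lowest median shown. The lists of omega-oxidation partners and of eicosanoid epoxygenases and hydrolases lie mostly above 0.

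Genes listed as partners of omega-oxidation mostly had log2 fold changes above 0. The list held genes that feed electrons to P450s, dehydrogenase genes, and Acsm1, Acsm3 and Acsm5 (0.31, 0.26 and -0.01). Of the 14 tested, 10 were above 0, where 8954 of 17406 features were, and the median log2 fold change was 0.28. None passed the threshold (0 called), and 4 had an unadjusted p under 0.05, against 10% of all features. Por, the reductase that supplies electrons to microsomal P450s, gave 51.5 and 43.1 in the Cyp3a-/- livers, against 17.3 and 20.6 in the wild type livers (log2 fold change 1.32 ± 0.20, SE, limma adjusted p = 0.137). Cyb5a, the cytochrome b5 that can assist them, gave 389 and 364 in the Cyp3a-/- livers, against 247 and 258 in the wild type livers. Neither gene's genotypes overlapped. The dehydrogenase gene Aldh1a1 stood at 0.72 (log2 fold change). Adh7 stood at 0.58 on a dim probe, with 1 of 2 wild type readings not above background.

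A list of eicosanoid genes, mostly P450s of the Cyp2c and Cyp2j families and epoxide hydrolases, had 11 of 15 tested genes above 0 (median log2 fold change 0.27). Over all features 8954 of 17406 were above 0. The list also held Ltc4s at -0.18, Lta4h at 0.01, Cyp2u1 at -0.51 and Cyp2c70 at -0.002. None of the 15 passed the threshold (0 called), and 8 had an unadjusted p under 0.05, against 10% of all features. Cyp2c38, a Cyp2c enzyme, gave 197 and 180 in the Cyp3a-/- livers, against 47.0 and 61.4 in the wild type livers (limma adjusted p = 0.0616). Cyp2c29 stood at 1.04, Cyp2c39 at 1.61 and Cyp2j9 at -0.75 (log2 fold change). Cyp4a14, Cyp4a10 and these genes come from the same contrast and the same livers, so their opposite signs describe these 4 livers.

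Proliferation genes shared the high level in wild type 2. Of 13 tested proliferation genes 11 were highest in that liver, against 24.1% of all features. Of the same 13 genes, 11 had a log2 fold change below 0, against 48.6% of all features, at a median of -0.83. The summed signal of the 13 was 7.97 and 7.19 in the Cyp3a-/- livers, against 8.35 and 14.4 in the wild type livers. Rrm2 stood at -1.93, Ccnb1 at -1.66, Mki67 at -1.56 and Ccna2 at -1.41 (log2 fold change), and 0 of the 13 passed. The part of this in the Cyp4a values was not tested.

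Markers of other cell types gave 0 calls in each list. Of 8 markers of kidney, which also expresses Cyp4a genes, 5 passed background on 0 arrays, Umod among them, and the 3 tested summed to 0.406 and 0.251 in the Cyp3a-/- livers, against 0.295 and 0.338 in the wild type livers. Of 6 adipocyte markers 4 passed background on 0 arrays, and the 2 tested summed to 1.63 and 1.90 in the Cyp3a-/- livers and 1.63 and 1.43 in the wild type livers. Summed macrophage markers (8 of 8 tested) were 46.7 and 51.5 in the Cyp3a-/- livers, against 57.4 and 59.1 in the wild type livers, and summed stellate cell markers (8 of 8) were 59.7 and 69.2 in the Cyp3a-/- livers, against 78.3 and 70.2 in the wild type livers. Sinusoidal endothelial markers (8 of 8) summed to 38.4 and 36.1 in the Cyp3a-/- livers and 44.2 and 33.6 in the wild type livers. Gene by gene, 6 of 8 macrophage, 8 of 8 stellate cell and 4 of 8 endothelial markers were below 0, against 48.6% of all features. Macrophage markers ran from -1.47 to 0.16, and stellate cell markers from -0.54 to -0.10 (log2 fold change). Erythroid markers (5 of 6 tested) summed to 34.6 and 57.9 in the Cyp3a-/- livers, against 68.4 and 80.5 in the wild type livers. For cholangiocyte, lymphocyte, neutrophil and intestinal markers the median log2 fold changes were 0.06, -0.21, 0.13 and -0.46, over 5, 6, 4 and 2 tested genes. The part of these cells in the Cyp4 values was not tested.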

How the data were processed

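Each liver's Cy3-labelled RNA was hybridised to its own array, per the labels. The deposited scanner files hold intensity values. Per the submitters' processing notes they come from version 11.5.1.1 of Agilent Feature Extraction. The authors' processed signal had its background subtracted and was not scaled between arrays, per the file headers. The authors' deposited log2 table, used as an alternative, equalled the scanner values scaled to the 75th percentile and centred per probe (largest difference 0.00161), and its column medians were -0.02 and 0.02 for Cyp3a-/- and 0.06 and -0.07 for wild type.

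Control and outlier spots were dropped. The processed intensity was divided by its array's 75th percentile and log2-transformed. Probes had to pass background on both arrays of 1 genotype or the other (21508 probes), and a gene was read from its brightest such probe. Accessions gave 28025 probes a GRCm38.p6 symbol and left 11404 without. The test was limma 3.58.1 (R 4.3.3), 2-sided, with Benjamini-Hochberg adjustment over 17406 features, prior degrees of freedom 3.54 and 2 residual, and the script was tested on simulated data. An exact permutation test of 2 against 2 cannot go below 0.333. The p-values rest only on these livers. The spread they use includes differences between arrays and slides, and limma draws part of it from all features. At-least folds set the bright genotype's mean against, per array, the lowest signal that passed background or the probe's own if higher.

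The members, the gene lists and the naming rule were chosen with earlier results of these data known. The rule names all members, tested Cyp4 genes, the genes of nearest pattern, and, per pathway list, every called gene and the 4 largest absolute log2 fold changes. Mup20, Alb, Umod, Xist and Kdm5d fall outside it and were chosen after their values were seen. Acsm1, Acsm3, Acsm5, Ltc4s, Lta4h, Cyp2u1 and Cyp2c70 also fall outside it, and their choice followed no stated rule. Cyp3a11 was named as the genotype check. Columns of per-sample values left unused numbered 0. Alternatives were other scalings, background corrections and filters, blocks, and leaving out each liver.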

Additional observations from a re-analysis of the deposited data

How the results depend on the processing

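With 2 livers per genotype, counts moved with the setting. Against 48 genes called by limma (0 members, 3 at an unadjusted p under 0.05), 13 were called with no filter on dim probes, 9 when all 4 arrays had to pass background, and 659 with median scaling, where the prior degrees of freedom became infinite and 4 members (Cyp4a14, Cyp4a10, Cyp4a31 and Cyp4a32) and 6 PPARA pathway genes passed. Leaving out 1 liver gave 7 (without wild type 2) to 506 genes (without Cyp3a-/- 2), with 94 without Cyp3a-/- 1 and 8 without wild type 1, 0 to 1 members (Cyp4a14 without Cyp3a-/- 1) and 0 to 1 pathway genes (1 without wild type 1). The cause of these shifts was otherwise not tested. At an unadjusted p under 0.05, 0 members stood without wild type 2.

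Cyp4a14, Cyp4a10, Cyp4a31 and Cyp4a32 had log2 fold changes below 0 in all 14 alternatives, with ranges of -5.31 to -2.61 for Cyp4a14, -2.30 to -1.003 for Cyp4a10, -2.34 to -0.99 for Cyp4a31 and -1.83 to -0.46 for Cyp4a32. Signs turned for Cyp4a12a (-0.039 to 0.49 over the settings without 1 liver), Cyp4a12b (-0.016 to 0.48) and Cyp4f14 (-0.22 to 0.10). With the replicate number as a block 58 genes and 0 members were called. The labels do not say that a number marks an experiment, and deviations of same-numbered livers had r = -0.10 over 17406 features. The crossed pairing, added after seeing the data, called 56 genes and 1 member. The planned random block for slide could not be fitted with 3 slides, and a block with correlation 0.355, estimated from the gaps within genotypes and added after seeing the data, called 33 genes and 0 members. That estimate assumes that livers vary equally in both genotypes, so a wider spread among Cyp3a-/- livers would count as slide.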
